A study of Mus musculus with 9 samples.

Results

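The genes of MHC class II antigen presentation and T-cell costimulation were examined in macrophage lines of 3 origins. The 10 members, chosen by symbol from the 24411 genes of the deposited table, were the class II chain genes H2-Aa, H2-Ab1 and H2-Eb1, the invariant chain gene Cd74, the peptide exchange genes H2-DMa and H2-DMb1, the transactivator gene Ciita, and the costimulation genes Cd80, Cd86 and Cd40. All 10 were found. The table holds 1 RNA-seq library per line, with 3 YS, 3 FL and 3 BM lines, which are macrophages from yolk sac at E9.5, fetal liver at E14.5 and adult bone marrow of C57BL/6 mice. All were grown over many passages with recombinant human M-CSF, the growth factor on which they depend, and no stimulus is named for the libraries. A line is the bulk culture from a separate dish or well, and cells pooled from several mice started the cultures. The labels do not tie a line to an animal, so p-values measure the spread among cultures within an origin and not among animals. In the main fits below this spread was pooled over all 3 origins, with that of the origin not compared.

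MHC class II molecules are pairs of an alpha and a beta chain that show peptides from engulfed material to CD4+ T cells. The invariant chain, CD74, holds the new pair together until it reaches the endosome, where the DM pair replaces the last invariant chain fragment with a peptide. CIITA, the class II transactivator, binds no DNA itself but joins a protein complex on the X and Y boxes of class II promoters, and interferon gamma induces it in macrophages. CD80 and CD86 on the presenting cell engage CD28 and CTLA-4 on T cells, and CD40 receives the CD40 ligand of activated helper T cells. Resting macrophages are known to hold less surface class II than dendritic cells or B cells.

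The X and Y boxes are shown here because the class II genes that carry them had very different levels in these lines. RefSeq windows of build GRCm38.p6, from 250 bases before to 50 after a start site, were given for 5 of the 10 members (H2-Aa, H2-Eb1, H2-DMa, H2-DMb1 and Cd80). The 130 bases before the start site are printed 5′ to 3′ on the strand of the gene for 3 of them, H2-Aa at chr17:34287824-34287953 on the minus strand, H2-Eb1 at chr17:34305737-34305866 on the plus strand and H2-DMb1 at chr17:34153061-34153190 on the plus strand. Capitals mark the X box core (X1, which is AG, AC and TG spaced by 2 and then 3 free bases, or X2, which is TGNNGTCA) and the Y box core (ATTGG, or CCAAT where it lies on the other strand).
H2-Aa: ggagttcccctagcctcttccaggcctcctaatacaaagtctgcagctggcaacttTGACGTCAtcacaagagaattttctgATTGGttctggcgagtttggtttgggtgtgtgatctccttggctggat
H2-Eb1: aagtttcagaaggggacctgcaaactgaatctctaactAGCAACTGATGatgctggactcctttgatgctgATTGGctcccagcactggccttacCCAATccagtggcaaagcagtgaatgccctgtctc
H2-DMb1: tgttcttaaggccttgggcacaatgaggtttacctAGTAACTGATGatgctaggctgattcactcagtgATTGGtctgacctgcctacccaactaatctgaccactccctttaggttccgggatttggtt

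The X1 core began 33 bases before the Y core in H2-Eb1 and 34 bases before it in H2-DMb1. In H2-Aa the X2 core began 26 bases before the Y core. Both strands were searched, and no X core overlapped a Y core in these promoters. Over all 32851 windows, 14.8% held an X1 core, 18.6% an X2 core and 37.4% a Y core, and 11.6% held a Y core together with an X core, so these short motifs are common. One of the windows of H2-DMa held a Y core alone, and the Cd80 window held none of the X and Y cores. A gamma-activated site (TTCNNNGAA, in 8.3% of windows), an interferon-stimulated response element (a repeat of GAAA spaced by 2 free bases, in 3.44%) and a kappa B core (GGG and TTTCC spaced by 2 free bases, in 1.63%) were not found in any member's window. A match is a description of letters and not a binding site.

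Expression is given in TPM, a relative transcript abundance corrected for transcript length and scaled to a common library total, so that levels of different genes can be compared. TPM keeps no read number, so the depth behind a value is unknown and the spread among lines is the only measure of precision. Between 13345 and 14322 genes of a library were above 0. A value of 0 is reported as listed at 0, since Rpl26, a ribosomal protein gene that every cell uses, was also listed at 0 in 6 of the 9 lines. The macrophage label was checked against its markers. All 7 of the macrophage list (Adgre1, Itgam, Csf1r, Fcgr1, Mertk, Cd68 and Cd14) were expressed, with a summed level of 2903 to 5644 TPM among YS lines, 5737 to 6766 TPM among FL lines and 5035 to 5452 TPM among BM lines. One of these markers, Fcgr1, the high-affinity IgG receptor gene, moved with origin: it was at 122, 330 and 286 TPM among YS lines, 166, 110 and 172 TPM among FL lines, and 5.47, 42.10 and 1.68 TPM among BM lines (4.65 and 4.02 on the log2 scale higher than in BM lines, limma adjusted p = 0.0076 and 0.014). Over the 9 lines Fcgr1 followed the member Cd86 (Pearson r = 0.93, and 0.74 without BM lines 1 and 3). The other members were not set against it. Mertk, an efferocytosis receptor gene, was called higher in FL than in BM lines (1.99, adjusted p = 0.0059) and lower in YS than in FL lines (-1.82, adjusted p = 0.032). BM line 2 was the highest BM line in Cd74, Cd86 and Cd40, and a rule was applied to it alone. The rule took the 45 genes under 0.5 TPM in the other BM lines that reached 20 TPM in YS line 2. In BM line 2 these genes held a median of 14.1% of the YS line 2 level. Choosing genes that are low in the other BM lines favours a higher level in BM line 2. The rule was not applied to BM lines 1 and 3, so the share alone cannot show whether BM line 2 stood apart. Over the genes tested below, BM line 2 had a higher Pearson r than BM lines 1 and 3 with every YS and FL line. With YS line 2 these were 0.934, 0.893 and 0.886, and with FL line 2 0.915, 0.891 and 0.886. BM line 2 was still closest to BM line 1 (r = 0.979). It had 14195 genes above 0, against 13368 and 13345 in BM lines 1 and 3. The cause was not tested. Member calls that involve BM lines are also given without BM line 2. Of the called genes of the further lists and of the class II region described below, all 20 between YS and BM lines and 13 of 14 between FL and BM lines were still called without BM line 2, and none changed direction. The call lost was that of Cd82 in FL lines.

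Differences were tested with limma on log2(TPM + 1), a scale that understates the change of low genes, over the 11753 genes that reached 1 TPM in 3 or more of the 9 libraries. A gene is called when its Benjamini-Hochberg adjusted p is under 0.1 and its change is over 2-fold. Of the members, 6 passed this filter (Cd74, H2-DMa, H2-DMb1, Cd80, Cd86 and Cd40). H2-Aa, H2-Ab1, H2-Eb1 and Ciita did not. Between YS and BM lines, 4 members were called, 3 higher in YS lines (Cd86, Cd40 and Cd74) and 1 lower (Cd80). Of all genes tested in that comparison 12.8% were called, 7.57% as higher and 5.22% as lower. Between FL and BM lines, 2 members were called (Cd40 and Cd86), both higher in FL lines, against 10.3% of all genes, with 6.01% higher and 4.3% lower. Between YS and FL lines only Cd74 was called, as higher in YS lines, against 3.79% of all genes, with 1.95% higher and 1.85% lower. The median log2 fold change of the 6 tested members was 1.53, 0.37 and -0.18 in these comparisons, beside 0.11, 0.09 and 0.02 for all genes tested. The comparisons share their lines and are not independent of each other.

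**Figure D1:**
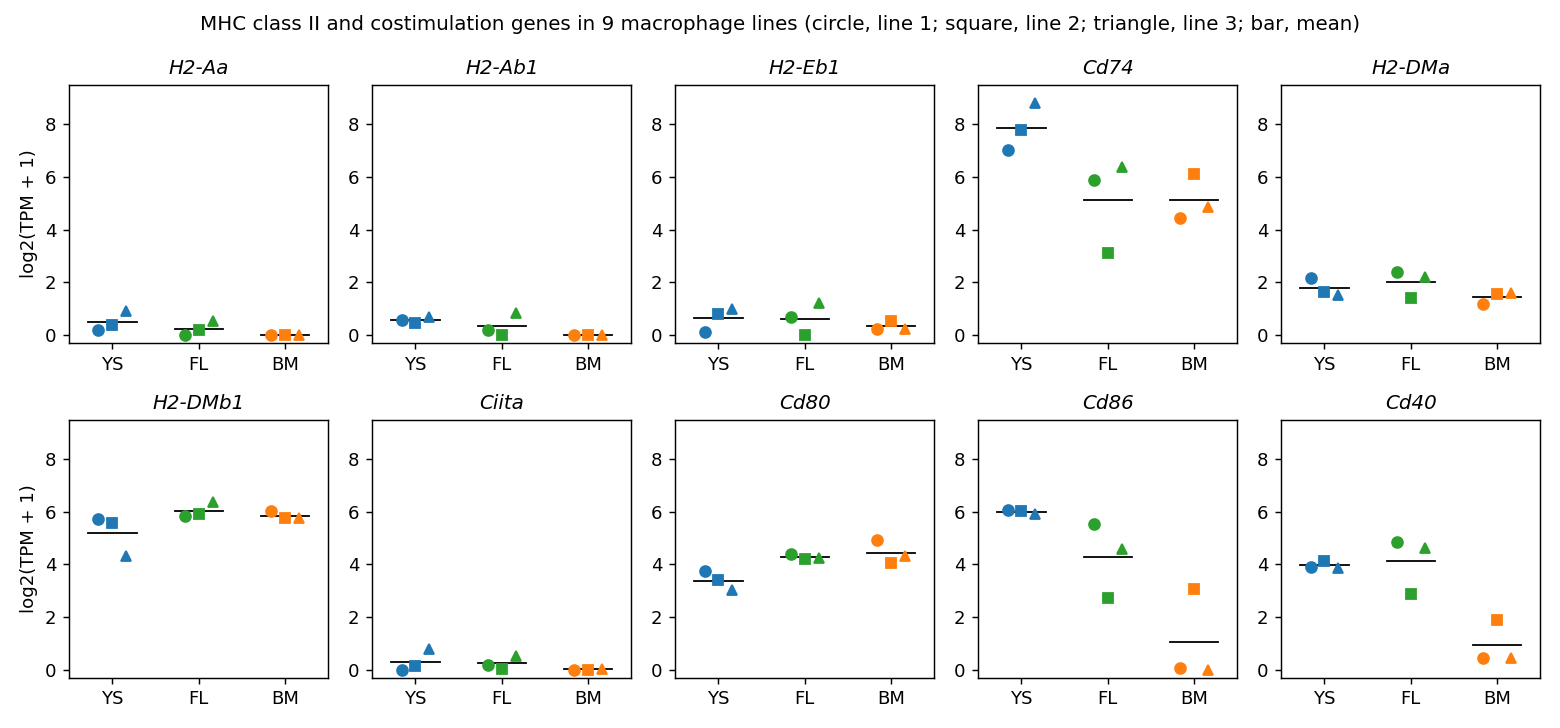
Level of the 10 members in each line, as log2(TPM + 1) on the vertical axis, by origin on the horizontal axis. Points are lines, marked by their number, and bars are group means. H2-Aa, H2-Ab1, H2-Eb1 and Ciita lie near 0 in all origins, Cd74 is highest in the YS lines, and Cd86 and Cd40 are near 0 in BM lines 1 and 3.

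The transcripts of the class II chains themselves were almost absent. H2-Aa, which encodes the alpha chain of the I-A molecule, was at 0.14, 0.30 and 0.86 TPM among YS lines 1 to 3, at 0, 0.13 and 0.45 TPM among FL lines, and listed at 0 in all 3 BM lines. H2-Ab1, which encodes its beta chain, was at 0.50, 0.39 and 0.62 TPM among YS lines, at 0.14, 0 and 0.79 TPM among FL lines, and also listed at 0 in all BM lines. For both genes every YS line lay above every BM line, while the FL lines overlapped with both. H2-Eb1, which encodes the beta chain of I-E, was at 0.09, 0.74 and 0.97 TPM among YS lines, at 0.60, 0 and 1.30 TPM among FL lines, and at 0.18, 0.43 and 0.18 TPM among BM lines, and its groups overlapped. The I-E alpha chain is not made in C57BL/6 mice, and its locus, listed in the annotation as the pseudogene H2-Ea-ps, was listed at 0 in every line. A single value of a chain gene reached 1 TPM, that of H2-Eb1 in FL line 3.

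With 3 lines against 3, the exact two-sided permutation test cannot go below p = 0.1. This exact test gave p = 0.1 for H2-Aa and for H2-Ab1 between YS and BM lines, and p = 0.4 for H2-Eb1 in the same comparison. In FL against BM lines the exact p was 0.4 for H2-Aa, 0.4 for H2-Ab1 and 0.6 for H2-Eb1, and in YS against FL lines it was 0.4, 0.4 and 1. No fold is given for a gene listed at 0 in a whole group.

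Ciita was as low as the chain genes. Its levels were 0, 0.09 and 0.74 TPM among YS lines, 0.12, 0.03 and 0.44 TPM among FL lines, and 0, 0 and 0.03 TPM among BM lines. No line reached 1 TPM, and all groups overlapped (exact permutation p = 0.4 for YS against BM lines, 0.2 for FL against BM lines and 0.9 for YS against FL lines). The highest Ciita levels, in YS line 3 and FL line 3, were in the lines with the highest summed level of H2-Aa, H2-Ab1 and H2-Eb1, 2.45 and 2.54 TPM, while the other 7 lines had sums from 0.13 to 1.43 TPM. In the GENCODE M21 gene models an exon of Ciita overlaps Dexi on the opposite strand, and the libraries were prepared with strand information, but the strand setting of the counting is not given in the sources used here.

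Cd74 was expressed apart from the chains it serves. Its level was 129.15, 218.38 and 450.41 TPM among YS lines, 57.48, 7.69 and 81.62 TPM among FL lines, and 20.53, 68.57 and 27.78 TPM among BM lines. Every YS line lay above every FL and BM line, and FL line 2 was the lowest of all 9. The mean was 266 ± 166 TPM among YS lines, 48.9 ± 37.7 TPM among FL lines and 39.0 ± 25.9 TPM among BM lines (SD, n = 3 each). In every line the Cd74 level was between 32.1 and 184 times the summed level of the 3 chain genes. By its group mean, Cd74 exceeded 94.8% of the genes tested in YS lines, but 67.0% and 62.9% in FL and BM lines.

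In YS lines Cd74 was higher than in BM lines by 2.74 on the log2 scale (SE 0.85, 95% interval 0.80 to 4.68, limma adjusted p = 0.043). Without BM line 2 the difference was 3.24 (adjusted p = 0.048), but the call was lost without YS line 3 (2.27, adjusted p = 0.11), without BM line 1 (2.39, adjusted p = 0.14) or without BM line 3 (2.60, adjusted p = 0.12). Against FL lines the difference was 2.75 (SE 0.85, 95% interval 0.82 to 4.69, adjusted p = 0.093). This call was the less firm: it was lost with 7 of the 9 lines left out in turn, down to a difference of 1.75 (adjusted p = 0.19) without FL line 2 and with an adjusted p of 0.12 without BM line 2. FL and BM lines did not differ in the test (-0.01, 95% interval -1.95 to 1.93, adjusted p = 0.99; 0.48, adjusted p = 0.79, without BM line 2), an interval that leaves room for a change past 2-fold in either direction. Cd74 contains the microRNA gene Mir5107 on the same strand, whose reads cannot be told from its own.

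The genes of the DM pair had unequal levels. H2-DMb1, for the DM beta chain, was at 51.71, 46.08 and 18.82 TPM among YS lines, at 56.75, 59.13 and 82.35 TPM among FL lines, and at 64.38, 54.03 and 53.27 TPM among BM lines. H2-DMa, for the alpha chain with which it pairs, was at 3.43, 2.14 and 1.85 TPM among YS lines, at 4.21, 1.63 and 3.64 TPM among FL lines, and at 1.28, 1.98 and 2.02 TPM among BM lines. The listed level of H2-DMb1 was 10.2 to 50.3 times that of H2-DMa in the same line. Both levels carry the limits on the assignment of reads given below.

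Every YS line lay below every FL and BM line in H2-DMb1, but the differences were not called (-0.66, 95% interval -1.44 to 0.11, limma adjusted p = 0.17 against BM lines, and -0.85, 95% interval -1.63 to -0.08, adjusted p = 0.16 against FL lines). For H2-DMa the groups overlapped, and the log2 differences were 0.32 (95% interval -0.38 to 1.01, adjusted p = 0.46) for YS against BM lines, 0.54 (95% interval -0.15 to 1.24, adjusted p = 0.25) for FL against BM lines and -0.23 (95% interval -0.93 to 0.47, adjusted p = 0.66) for YS against FL lines. These intervals do not exclude changes of about 2-fold, and without BM line 2 neither gene was called either. H2-DMb1 has a near copy beside it, H2-DMb2, and 15.8% of the 75-nt windows of its transcripts are shared with that copy, so the split of reads between them is uncertain. An exon of H2-DMa overlaps Brd2 on the opposite strand.

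Unlike the chain genes, the costimulation genes Cd86 and Cd40 were clearly expressed in all YS and FL lines, and they differed by origin. In BM lines 1 and 3 both were under 1 TPM, as the chain genes were (Cd40 at 0.37 TPM in each). Cd86 was at 65.91, 63.74 and 59.90 TPM among YS lines, at 44.92, 5.64 and 23.00 TPM among FL lines, and at 0.06, 7.30 and 0 TPM among BM lines. The YS lines were close to each other, the FL lines were spread widely, and BM line 2 was the BM line with a sizeable level, above FL line 2. The means were 63.2 ± 3.0 TPM among YS lines, 24.5 ± 19.7 TPM among FL lines and 2.45 ± 4.20 TPM among BM lines (SD, n = 3 each), with the BM mean resting on BM line 2.

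Against BM lines, Cd86 was higher by 4.96 on the log2 scale in YS lines (SE 0.89, 95% interval 2.93 to 6.98, limma adjusted p = 0.0064) and by 3.23 in FL lines (SE 0.89, 95% interval 1.21 to 5.26, adjusted p = 0.035). Without BM line 2 these differences were 5.96 (adjusted p = 0.0022) and 4.24 (adjusted p = 0.0073). The FL difference was no longer called without FL line 1 (2.61, adjusted p = 0.11), BM line 1 (2.75, adjusted p = 0.13) or BM line 3 (2.71, adjusted p = 0.13). Every YS line lay above every FL line, but this difference was not called (1.72, 95% interval -0.30 to 3.75, adjusted p = 0.26).

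Cd40 was at 14.04, 16.76 and 13.50 TPM among YS lines, at 27.68, 6.26 and 24.00 TPM among FL lines, and at 0.37, 2.66 and 0.37 TPM among BM lines. It was the member whose FL lines all lay above all BM lines, and its YS lines did so too. The mean was 14.8 ± 1.7 TPM among YS lines, 19.3 ± 11.5 TPM among FL lines and 1.13 ± 1.32 TPM among BM lines (SD, n = 3 each). The log2 difference was 3.05 for YS against BM lines (SE 0.55, 95% interval 1.79 to 4.31, limma adjusted p = 0.0067) and 3.19 for FL against BM lines (SE 0.55, 95% interval 1.93 to 4.45, adjusted p = 0.0055). Without BM line 2 it was 3.52 (adjusted p = 0.0063) and 3.66 (adjusted p = 0.0055). YS and FL lines overlapped (-0.14, 95% interval -1.40 to 1.12, adjusted p = 0.89).

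Cd80 ran the other way. Its level was 12.34, 9.51 and 7.09 TPM among YS lines, 20.13, 17.27 and 17.94 TPM among FL lines, and 29.72, 15.50 and 19.22 TPM among BM lines. All YS lines lay below all FL and BM lines, while FL and BM lines overlapped. The difference of YS from BM lines was -1.06 on the log2 scale (SE 0.25, 95% interval -1.64 to -0.48, limma adjusted p = 0.018), just past 2-fold. It fell under 2-fold without YS line 3 (-0.88, adjusted p = 0.042) or BM line 1 (-0.81, adjusted p = 0.061), and was -1.26 (adjusted p = 0.0185) without BM line 2. Against FL lines the difference was -0.90 (SE 0.25, 95% interval -1.47 to -0.32, adjusted p = 0.076), which passed the adjusted p but not the 2-fold limit. FL and BM lines differed by -0.16 (95% interval -0.74 to 0.42, adjusted p = 0.70).

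Since CD80 and CD86 share their receptors, their levels were also set against each other within a line. The Cd86 level was 5.34 to 8.45 times that of Cd80 in YS lines, 0.327 to 2.23 times in FL lines and 0 to 0.471 times in BM lines. The ratio was highest in the YS lines with no overlap with the other groups, and FL line 2 fell inside the BM range.

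**Figure D2:**
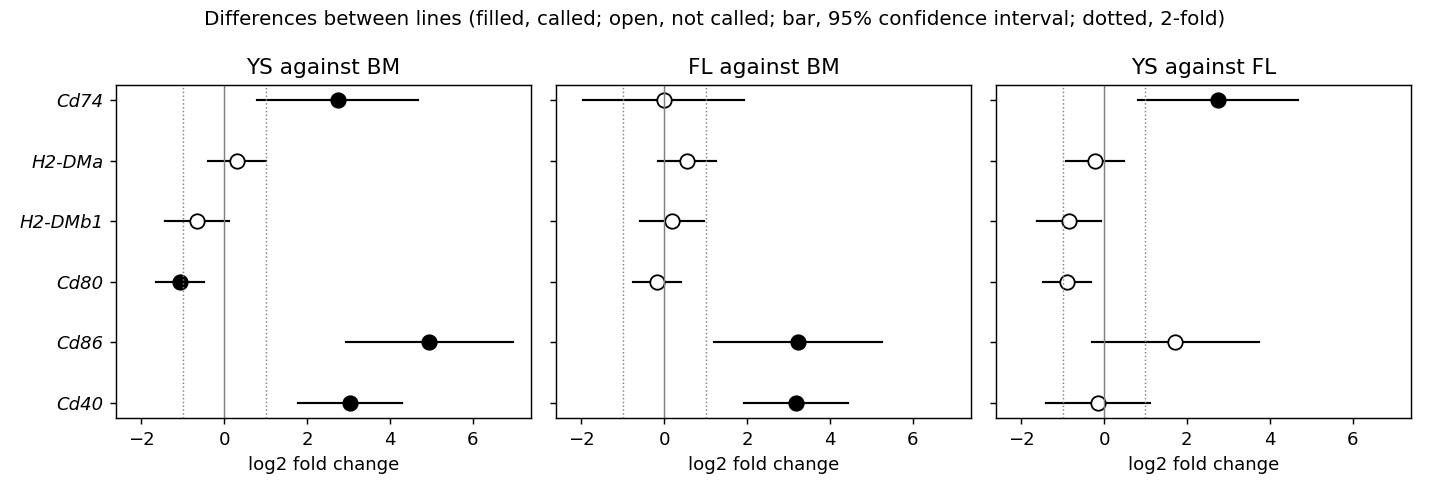
Log2 fold change of log2(TPM + 1), on the horizontal axis, of the 6 members tested, in the 3 comparisons. Points are limma estimates, filled where called, lines are 95% intervals, and dotted lines mark 2-fold. Cd86 and Cd40 lie right of 2-fold in both comparisons with BM lines, Cd74 in both comparisons of YS lines, and Cd80 is called on the lower side in YS against BM lines alone.

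Some of the members varied together across the lines. Within the groups, after each group's mean had been subtracted, Cd86 and Cd40 varied together (r = 0.95), and so did Cd74 and H2-Eb1 (r = 0.91) and Cd74 and Cd40 (r = 0.85). The YS lines hardly varied in Cd86 and Cd40 (log2 SD 0.07 and 0.16), so the r of that pair within groups rests mainly on FL and BM lines. Over all 9 lines Cd86 and Cd40 had r = 0.93 and rho = 0.71, and r = 0.73 without BM lines 1 and 3. Cd74 and Cd40 had r = 0.54 and rho = 0.48, and r = 0.75 without FL line 2 and YS line 3. The r of Cd74 and H2-Eb1 over all 9 lines was 0.67, and 0.40 without FL line 2 and YS line 3. Within groups Cd74 and H2-DMb1 did not vary together (r = -0.26). Over all 9 lines their r was -0.64 and rho -0.68, and r was -0.35 without FL line 2 and YS line 3. Cd74 and Cd80 ran in opposite directions over all lines (r = -0.81, rho = -0.78). Their r was -0.93 without those lines and -0.45 within groups. FL line 2 was the lowest FL line in 8 of the 10 members, the exceptions being H2-Aa and H2-DMb1. Across all 9 lines Cd74 followed H2-Oa, the gene of the DO alpha chain (Pearson r = 0.89, Spearman rho = 0.88), with r = 0.85 when FL line 2 and YS line 3, farthest from the median of Cd74, were left out and r = 0.67 within groups. With Ciita, r was 0.61 and rho 0.44 over all lines, and r fell to 0.22 without the same 2 lines, so that relation rests on them. Within groups it was 0.66. These correlations were computed over lines that share their origin and, for each pair of genes, their libraries, and they are descriptions.

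**Figure D3:**
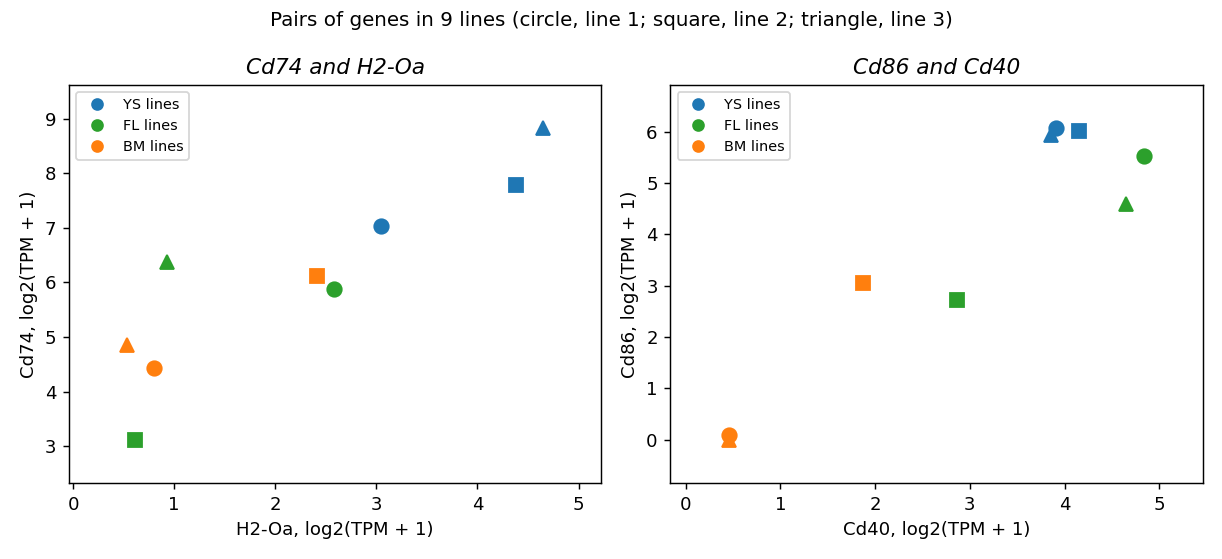
Cd74 against H2-Oa (left) and Cd86 against Cd40 (right) in the 9 lines, both axes as log2(TPM + 1), with colours for the origin and shapes for the line number. Cd74 rises with H2-Oa, with YS line 3 at the top right, FL line 2 at the bottom and FL line 3 high in Cd74 for its low H2-Oa, and BM lines 1 and 3 lie together near 0 for Cd86 and Cd40.

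Genes with a pattern like that of the class II chains and Cd74 were sought over the tested genes, by Pearson's r over the 9 lines with the mean log2(TPM + 1) of H2-Aa, H2-Ab1, H2-Eb1 and Cd74. The 10 closest were Alkbh2, Gcnt2, Ckap4, Ifitm3, Tmco4, Gm7609, Dhrs3, Zdhhc13, Ifitm6 and Psme2b, with r from 0.916 to 0.958. Ifitm3 and Ifitm6 belong to the interferon-induced transmembrane family. Ifitm3 was at 2156, 2975 and 4006 TPM among YS lines, 885, 280.3 and 1539 TPM among FL lines, and 387, 1094 and 222 TPM among BM lines. It was highest in YS line 3, and FL line 2 was the lowest FL line. Since the 10 genes were picked by r with a mean that includes Cd74, their likeness to Cd74 was set by the choice. How high the closest r would be by chance was not tested, nor was the share of interferon-induced genes among the 10.

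Of 11 class II accessory chain and antigen processing genes, 9 were tested. In YS lines 3 were called higher and 1 lower than in BM lines. In FL lines 2 were called higher than in BM lines, and 1 was called each way in YS against FL lines. The share called among all genes tested was 12.8%, 10.3% and 3.79% in these comparisons, in either direction. H2-Oa and H2-Ob encode the DO pair, which inhibits DM. H2-Oa was at 7.26, 19.89 and 24.08 TPM among YS lines, 5.00, 0.53 and 0.91 TPM among FL lines, and 0.74, 4.33 and 0.45 TPM among BM lines, and was called higher in YS lines than in BM lines (2.78, adjusted p = 0.020) and FL lines (2.65, adjusted p = 0.062). H2-Ob was at or under 0.10 TPM among BM lines and from 0.68 to 2.28 TPM in the other lines. It was called higher than in BM lines in both FL lines (1.21, adjusted p = 0.026) and YS lines (1.11, adjusted p = 0.029). Lgmn, which encodes the endosomal protease legumain, was higher in both YS lines (2.76, adjusted p = 0.0029) and FL lines (2.98, adjusted p = 0.0017) than in BM lines. Ctss encodes cathepsin S, which trims the invariant chain. It was at 1149, 1967 and 1716 TPM among YS lines and at 5176, 4041 and 5772 TPM among BM lines, a difference of -1.65 (adjusted p = 0.0029). H2-DMb2 was lower in YS than in FL lines (-1.48, adjusted p = 0.057), with the shared reads named above.

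The factors that bind the X and Y boxes were present in every line. The RFX subunit genes Rfx5, Rfxap and Rfxank, the NF-Y subunit genes Nfya, Nfyb and Nfyc, and Creb1 ranged from 10.39 to 131.8 TPM. None of these 7 was called in any comparison by limma. At an unadjusted p under 0.05, 2 differed in YS against BM lines, 2 in FL against BM lines and 0 in YS against FL lines, where 41.2%, 33.6% and 25.7% of all genes tested had such a p. The 2 that differed between YS and BM lines, Nfyc (0.75, adjusted p = 0.0074) and Nfyb (-0.40, adjusted p = 0.074), passed the adjusted p with a change under 2-fold.

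The interferon gamma axis that feeds Ciita, and its brakes, made a list of 16 genes, all tested. In YS against BM lines 4 were called higher and 1 lower, and in FL against BM lines 2 higher and 1 lower. The share called among all genes tested was 12.8% and 10.3% in these comparisons, in either direction. In YS against FL lines 0 were called. There 3 had an unadjusted p under 0.05, as had 25.7% of all genes tested. Irf8, a myeloid transcription factor, was at 112.48, 61.75 and 53.35 TPM among YS lines and at 20.78, 28.47 and 23.66 TPM among BM lines (1.54, adjusted p = 0.0048), and it was also called in FL lines (1.11, adjusted p = 0.018). Tgfbr2, a TGF-beta receptor gene, was called higher than in BM lines in both FL lines (1.12, adjusted p = 0.0070) and YS lines (1.10, adjusted p = 0.0074). Prdm1 encodes BLIMP1, a repressor of Ciita transcription. It was at 0.05, 0.95 and 0.37 TPM among YS lines, 1.15, 1.96 and 1.10 TPM among FL lines, and 4.26, 3.00 and 5.10 TPM among BM lines, and was called lower in YS lines (-1.84, adjusted p = 0.0044) and FL lines (-1.09, adjusted p = 0.034) than in BM lines. The receptor genes Ifngr1 and Ifngr2 were expressed throughout, from 96.47 to 162.48 TPM, and neither was called.

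Of 13 genes for the turnover and trafficking of class II, 12 were tested. Of these, 2 were called lower in YS than in BM lines, and 2 lower and 1 higher in FL than in BM lines. The share called among all genes tested was 12.8% and 10.3% in these comparisons, in either direction. In YS against FL lines 0 were called. There 1 had an unadjusted p under 0.05, as had 25.7% of all genes tested. The lower genes were the tetraspanin genes Cd9 and Cd82. Cd9 was at 765.94, 324.27 and 154.54 TPM among YS lines, 624.20, 276.43 and 287.46 TPM among FL lines, and 1702.24, 1238.11 and 1266.55 TPM among BM lines, a difference of -2.04 (adjusted p = 0.025) for YS and -1.91 (adjusted p = 0.038) for FL lines. Cd82 differed by -1.59 (adjusted p = 0.030) and -1.28 (adjusted p = 0.076). March1, which encodes an E3 ligase that removes class II and CD86 from the surface, was at 21.81, 8.42 and 1.48 TPM among YS lines, 7.30, 37.65 and 15.77 TPM among FL lines, and 2.06, 2.80 and 0.62 TPM among BM lines, and was called higher in FL than in BM lines (2.72, adjusted p = 0.049). Cd83, whose product counters that ligase, did not pass the filter and was at 17.37, 0.06 and 9.96 TPM among FL lines but listed at 0 in all YS and BM lines.

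Other ligands and receptors of costimulation and coinhibition made a list of 18, of which 12 were tested. In YS lines 5 were called higher than in BM lines and 0 lower, and at an unadjusted p under 0.05 there were 5 higher and 2 lower. In FL lines 4 were called higher than in BM lines and 0 lower, and at an unadjusted p under 0.05 there were 6 higher and 0 lower. Of all genes tested, 41.2% had such a p in YS against BM lines and 33.6% in FL against BM lines, in either direction. In YS against FL lines 1 was called each way. The share called among all genes tested was 12.8%, 10.3% and 3.79% in these 3 comparisons, in either direction. Cd276, the B7-H3 gene, was at 38.88, 10.13 and 47.02 TPM among YS lines, 7.51, 13.04 and 21.70 TPM among FL lines, and 0.70, 2.01 and 0.28 TPM among BM lines, which was 3.89 (adjusted p = 0.0038) and 2.90 (adjusted p = 0.011) higher than in BM lines. Icam2, an adhesion ligand of LFA-1, was higher in YS lines by 2.39 (adjusted p = 0.0014), and Lgals9, which encodes galectin-9, was higher in FL lines by 2.79 (adjusted p = 0.016). Between YS and FL lines Tnfsf14, which encodes the ligand LIGHT, was higher in YS lines (1.36, adjusted p = 0.038) and Havcr2, the TIM-3 gene, was lower (-1.07, adjusted p = 0.025). Cd274, the PD-L1 gene, was at 2.42 to 9.63 TPM in all lines and was not called.

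Downstream of CD40, 13 genes of its TRAF adaptors and NF-kappa B factors were tested. None was called higher in any comparison by limma. At an unadjusted p under 0.05, 1 was higher and 4 lower in YS against BM lines, 1 higher and 7 lower in FL against BM lines, and 3 higher and 1 lower in YS against FL lines. Of all genes tested, 41.2%, 33.6% and 25.7% had such a p in these comparisons, in either direction. In YS lines 1 was called lower than in BM lines, Tnfaip3, which encodes the NF-kappa B inhibitor A20 (-1.44, adjusted p = 0.022). In FL lines 2 were called lower, Traf1 (-2.73, adjusted p = 0.036) and Nfkb2 (-1.27, adjusted p = 0.0011). The share called lower among all genes tested was 5.22% in YS and 4.3% in FL against BM lines. Nfkb2 was at 32.19, 24.94 and 27.43 TPM among FL lines and at 68.15, 66.31 and 72.03 TPM among BM lines. The BM lines, lowest in Cd40, were thus highest in Nfkb2, without overlap.

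The class II genes lie together on chromosome 17, with genes of class I antigen processing between them. In the RefSeq order, 14 protein-coding genes from H2-Oa to H2-Eb2 comprise 9 class II genes and 5 others, the chromatin reader gene Brd2, the immunoproteasome genes Psmb8 and Psmb9 and the peptide transporter genes Tap1 and Tap2. All 5 others were above 20 TPM in every line, with a lowest value of 22.74 TPM. Of the class II genes, H2-Ab1, H2-Aa and H2-Eb2 were under 1 TPM in every line. Psmb9 (1.17, adjusted p = 0.034), Tap1 (1.29, adjusted p = 0.039) and Psmb8 (1.04, adjusted p = 0.026) were called higher in YS than in BM lines, while Brd2 (-0.28, adjusted p = 0.035) and Tap2 (0.86, adjusted p = 0.016) passed the adjusted p with a change under 2-fold. Psmb9, Tap1, Psmb8 and Tap2, which lie between the DM genes and the chain genes, were thus expressed in all lines, beside chain genes near 0.

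**Figure D4:**
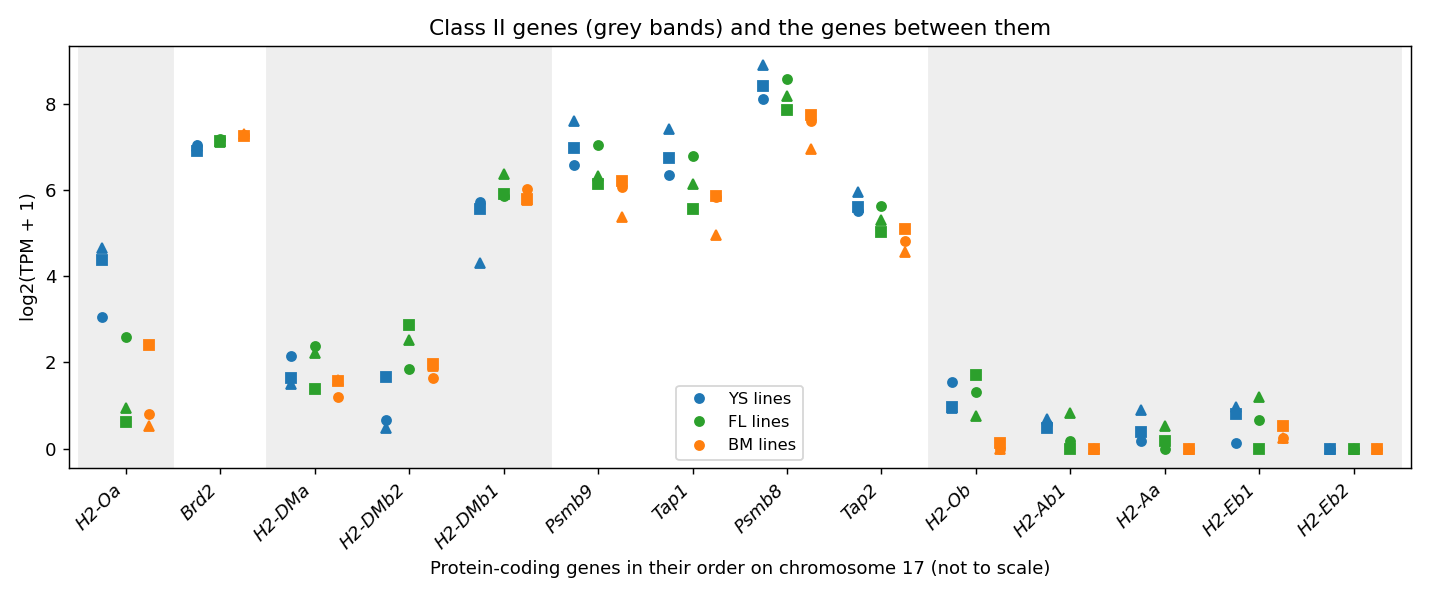
Level of 14 protein-coding genes in their order along chromosome 17 (horizontal axis, not to scale), as log2(TPM + 1) on the vertical axis, with colours for the origin, shapes for the line number and grey bands behind the class II genes. The non-class II genes lie high in all lines, whereas H2-Ab1, H2-Aa, H2-Eb1 and H2-Eb2 lie near 0.

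Cells of other types can bring class II and costimulation transcripts into a bulk library, in which fewer cells of a type and less RNA per cell cannot be told apart. Of 8 dendritic cell markers, Flt3, Cd209a and Dpp4 were listed at 0 in all lines and only Zbtb46 reached 1 TPM in any line. The summed level of these markers was 7.37 to 8.4 TPM among YS lines, 2.88 to 7.5 TPM among FL lines and 3.47 to 4.1 TPM among BM lines. Zbtb46 made most of it and was called higher in YS than in BM lines (1.05, adjusted p = 0.028). Its level was 6.94, 7.09 and 6.03 TPM among YS lines, 6.41, 5.00 and 2.23 TPM among FL lines, and 2.91, 2.69 and 2.55 TPM among BM lines. Of 6 B cell markers, Ighm was not in the table, Pax5 was listed at 0, and the sum was at most 1.61 TPM. Of 4 T cell markers, Cd3e, Cd3d and Cd3g were listed at 0, and the sum, all from Lck, was 1.99 to 4.65 TPM among YS lines, 0.52 to 1.43 TPM among FL lines and 0.94 to 2.18 TPM among BM lines. The granulocyte markers S100a9 and Elane were listed at 0, and Ly6g was not in the table. The granulocyte sum moved with origin, at 0.06 to 2.19 TPM among YS lines, 10.49 to 25.11 TPM among FL lines and 3.49 to 5.0 TPM among BM lines, mainly from S100a8, which was called in each comparison (-1.55, adjusted p = 0.036 for YS against BM, 1.98, adjusted p = 0.018 for FL against BM, and -3.53, adjusted p = 0.010 for YS against FL lines). The sum of 6 stromal and endothelial markers moved with origin too, at 5.64 to 56.0 TPM among YS lines, 18.9 to 51.8 TPM among FL lines and 0.08 to 2.56 TPM among BM lines, mainly from Kdr and, in YS lines 1 and 2, Pecam1. The part of these markers in the differences reported here was not tested.

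BM line 2 was the highest BM line in Cd74, Cd86, Cd40, H2-Eb1 and H2-Oa and the lowest in Cd80. Its excess over the mean of the other BM lines, as a share of the level in a YS line, was 11% to 12.1% for Cd86, 13.7% to 17% for Cd40, 9.86% to 34.4% for Cd74 and 15.5% to 51.4% for H2-Oa over the 3 YS lines. When the other lines took the place of YS line 2 in the rule above, the median share was 3.24% for YS line 1, 6.72% for YS line 3 and 5.77% to 8.38% for the FL lines, all below the 14.1% of YS line 2.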

How the data were processed

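Per the methods of the study, stranded libraries of poly(A) RNA were sequenced with single 75-nt reads. Per the labels and the submitters' processing notes, the authors used Trim Galore 0.6.6, STAR 2.7.9a and RSEM 1.3.3. The genome build and annotation are not given in the sources used here. The authors deposited TPM for 24411 symbols, with the same total in each library. The study's own comparisons started from raw counts, which were not used here, so read depth is unknown.

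From the TPM, log2(TPM + 1) was fitted with limma 3.58.1 in R 4.3.3 (all 9 libraries, 1 mean per group, intensity trend, p adjusted by Benjamini-Hochberg per comparison), after a filter of at least 1 TPM in at least 3 libraries, and genes were called at an adjusted p under 0.1 and over 2-fold. The fit was tested on simulated data. Every adjusted p in the text is from this limma fit, and the p-values of members under the filter are from exact two-sided permutation tests. Of each further list, up to 2 called genes each way per comparison were to be named by size. Genes named beyond that rule (the X and Y box factors with Nfyc and Nfyb, Ifngr1, Ifngr2, Cd83, Cd274, the genes between the class II genes and the marker genes) were picked for their place in the pathway or region or after their values were seen. A gene that the rule would also name is not reported here. The members and lists were chosen with earlier results of these data known. Symbols 4632428N05Rik, March1 and March8 of the table stand for Vsir, Marchf1 and Marchf8. Promoter windows and gene order came from RefSeq (GRCm38.p6), exon overlaps and shared windows from GENCODE M21. Alternatives changed the pseudocount, filter, scaling, variance trend, libraries, thresholds and replicate block, and left out each line in turn.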

Additional observations from a re-analysis of the deposited data

How the results depend on the processing

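Over the 324 combinations of a tested member, a comparison and an alternative, 295 kept their direction and side of the threshold, 22 lost the call, 1 gained it and 6 changed sign. None of those 6 was called with or without the change: Cd74 in FL against BM lines (0.040 at a pseudocount of 4, 0.99 without FL line 2, 0.48 without BM line 2, and from -0.64 to 0.99 with a line left out), Cd80 in FL against BM lines (0.088 without BM line 1, and from -0.36 to 0.088 with a line left out) and Cd40 in YS against FL lines (0.22 without FL line 1, 0.12 without FL line 3, and from -0.77 to 0.22 with a line left out). H2-DMa has no value under the 5 TPM filter. Members called between YS and BM lines ranged from 2 to 4 with a line left out (2 without YS line 3 or BM line 1), and members called between FL and BM lines from 1 to 2, with 1 called without a filter, where Cd86 was lost (adjusted p = 0.14). Between YS and FL lines they ranged from 0 to 2 with a line left out, were 0 without a filter, without the intensity trend, with only the 6 libraries compared and at an adjusted p under 0.05, and were 2 with no fold threshold. Cd80 lost its call between YS and BM lines at a pseudocount of 4 (-0.88), and Cd74 without a filter (adjusted p = 0.15). Summing H2-DMb1 with H2-DMb2, an alternative chosen after seeing the data, changed no call.

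Over all genes, calls ranged from 1138 to 1598 in YS against BM lines, from 902 to 1309 in FL against BM lines and from 191 to 588 in YS against FL lines with a line left out. With no fold threshold they were 4455, 3247 and 1500. In YS against FL lines they were 280 at a pseudocount of 4, 154 without a filter, 81 with only the 6 libraries compared and 234 at an adjusted p under 0.05. Quantile normalization moved the median log2 difference of YS against BM lines from 0.11 to -0.01, and the calls from 890 higher and 614 lower to 724 and 763, while members kept their calls. The lines share the numbers 1 to 3, but lines of the same number did not deviate together (r from -0.12 to 0.09). With the replicate block 0 members were called between YS and FL lines, where Cd74 was lost (adjusted p = 0.12), and no other member's call changed. The causes were not tested. Depth is unknown, so the precision of values under 1 TPM is not known.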
